A study of Mus musculus with 2 samples.

Results

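Among the day 4 cells of mouse eye organoids, 2360 cells carried the genes of the epiblast about to leave pluripotency, Pou5f1 and Fgf5, and no transcript of the forebrain and eye field genes Six3, Hesx1 and Lhx5. They were 25.9% of the 9114 day 4 barcodes and 30.2% (95% exact binomial interval 29.2 to 31.2%) of the 7812 day 4 barcodes within the limits on cell quality, of 16560 barcodes in the series. The cells were selected on their own counts. A member had at most 26000 unique molecular identifiers (UMIs, each standing for 1 captured transcript), at most 5000 genes, 0.5 to 10% of its UMIs from mitochondrial genes, fewer than 10 UMIs of Dppa5a, at least 1 UMI each of Pou5f1 and Fgf5, and 0 UMIs of Six3, Hesx1 and Lhx5. They were set beside 1584 day 4 cells within the same limits that held 10 or more Dppa5a UMIs (Dppa5a-high cells) and 1202 day 4 cells with fewer than 10 Dppa5a UMIs and at least 1 Six3 UMI (Six3-positive cells).

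The organoids were grown from mouse embryonic stem cells heterozygous for a Rax-GFP knock-in, a reporter of the eye field gene Rax, as floating aggregates in a serum-free differentiation medium with Matrigel. One 10x Genomics 3' v2 library was made on day 4 and 1 on day 6, and each pooled 3 biological experiments whose cells were not told apart here. All groups shared the stem cell line, the genotype and the culture, and all 3 came from the day 4 library. There was thus no replicate and no test: the intervals below are 95% exact intervals and cover counting error only. The label of the samples, retina progenitors, did not describe these members, in which Rax stood at 1.07 CPM (UMIs of a gene per 1e6 UMIs of the group).

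When embryonic stem cells leave the naive state, they lose a set of naive factors such as Zfp42 and Klf2 and keep Pou5f1. In the formative state that follows, cells take up Fgf5, Dnmt3b and Otx2 and can respond to signals that direct them to the germ layers, and low BMP, Nodal and Wnt signalling lets them take an anterior neural course. Six3, Hesx1 and Lhx5 are transcription factor genes of the most anterior neural plate, and Dppa5a encodes an RNA-binding protein of naive stem cells.

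The members held 4638 to 25904 UMIs (median 10942) and a median of 2710 genes. The medians were 11993 UMIs in the Dppa5a-high cells and 13557.5 in the Six3-positive cells, so the Six3-positive cells were the deeper group. The median mitochondrial shares were 3.12%, 2.92% and 3.10%, and the median ribosomal protein shares were 36.7%, 40.8% and 36.2% in the same order. The day 4 and day 6 libraries shared 91 barcodes, and 25 members carried one of them. Another 39 day 4 cells, none of them members, held 10 or more UMIs of 7 primitive endoderm markers (endoderm-marker cells, median 13182 UMIs), and their shares of cells with a UMI are given below as background. Of them 5 (12.8%) had a UMI of both Pou5f1 and Fgf5.

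Of the 5 marker genes, 3 were not used in the choice of the cells: Dnmt3b, a de novo DNA methyltransferase of the postimplantation epiblast, Pim2, a serine/threonine kinase, and Utf1, a chromatin factor of pluripotent cells. Dnmt3b stood at 666 CPM in the members (657 to 676), 302 CPM in the Dppa5a-high cells and 562 CPM in the Six3-positive cells. Pim2 stood at 397, 154 and 396 CPM, and was thus at the same level in members and Six3-positive cells (interval of the ratio 0.971 to 1.03). Utf1 fell between the groups, at 277 CPM in the members against 547 CPM in the Dppa5a-high cells and 153 CPM in the Six3-positive cells. Of the 3, only Dnmt3b was above both groups beyond its counting interval, at 1.19 times the level of the Six3-positive cells. Further genes of that state were not highest in the members either. Otx2, a head and epiblast transcription factor, stood at 123, 156 and 199 CPM, and Pou3f1, a POU factor of the epiblast, at 55.5, 58.2 and 41.8 CPM, in the order members, Dppa5a-high, Six3-positive.

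**Figure D1:**
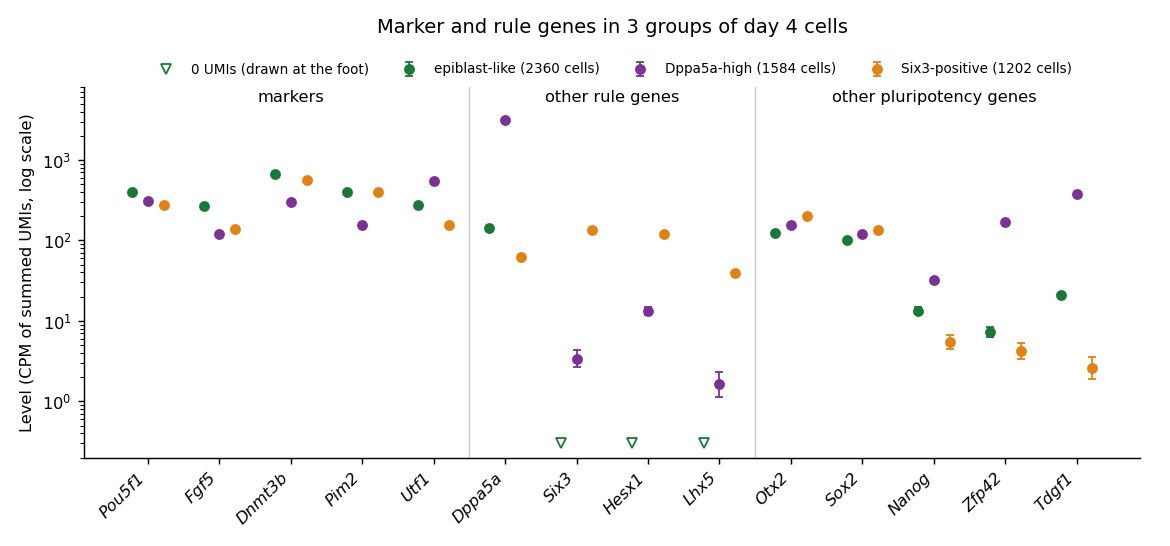
Levels of the 5 marker genes, the other 4 genes of the rule and 5 further pluripotency genes in the 3 groups of day 4 cells, as CPM of summed UMIs on a log axis, with bars for 95% exact Poisson intervals that cover counting error only. Open triangles mark 0 UMIs, which the rule fixed for the members at Six3, Hesx1 and Lhx5. The members lay above both groups for Dnmt3b, and near the Six3-positive cells for Pim2. They also lay above both for Pou5f1 and Fgf5, of which the rule asked at least 1 UMI in members alone.

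The genes of the rule are given as a description. Pou5f1, the core pluripotency factor, stood at 397 CPM in the members, 313 CPM in the Dppa5a-high cells and 274 CPM in the Six3-positive cells. Fgf5, an FGF ligand of the epiblast, stood at 267, 119 and 138 CPM. Dppa5a stood at 144, 3134 and 62.4 CPM, and 889 members (37.7%) had none. When each cell was thinned to 5000 UMIs, 2321 members were deep enough, and Fgf5 was seen in 75.1% of members, 34.1% of Dppa5a-high cells, 44.9% of Six3-positive cells and 5.13% of endoderm-marker cells. Pou5f1 was seen in 86.1%, 75.9%, 70.2% and 20.5% of the same groups. Neither comparison group lacked these genes, and 48.6% of the Dppa5a-high and 67.5% of the Six3-positive cells held a UMI of both.

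Of the 3 unused markers, Dnmt3b was seen in 91.9% of thinned members (unthinned 97.8%), Pim2 in 81.6% (unthinned 95.1%) and Utf1 in 70.4% (unthinned 89.0%). The endoderm-marker cells gave 61.5%, 17.9% and 23.1% for the same genes at the same depth. The thinned members had a median of 3 Dnmt3b UMIs (10th to 90th percentile 1 to 6, highest 13), 2 Pim2 UMIs (0 to 4, highest 11) and 1 Utf1 UMI (0 to 3, highest 10).

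The cells just inside and just outside each limit of the rule were as follows, with no test. The 122 members with 7 to 9 Dppa5a UMIs had Gpx4 at 1682 CPM and Tdgf1 at 106 CPM, and the 86 cells with 10 to 12 that otherwise met the rule had 2678 and 211 CPM. The 663 members with 1 Fgf5 UMI had Dnmt3b at 599 CPM and Mest at 162 CPM, and the 794 cells with 0 that otherwise met the rule had 467 and 252 CPM. The 312 members with 1 Pou5f1 UMI had Pim2 at 389 CPM, against 347 CPM in 154 cells with 0. The 745 cells with 1 UMI of the 3 anterior genes, just outside, had Mest at 245 CPM and Id1 at 89.3 CPM, against 149 and 46.4 CPM in the members. At the upper limit, 34 members with 24026 to 25904 UMIs had Dnmt3b at 735 CPM and 29 cells with 26058 to 27922 had 785 CPM. At the lower mitochondrial limit, 32 members with a share under 1% had Dnmt3b at 345 CPM and 65 cells with a share under 0.5% had 198 CPM.

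Whether a cell counted as free of the anterior genes moved with its depth. Of the 4283 cells with Pou5f1 and Fgf5 and fewer than 10 Dppa5a UMIs, 72.8% of the shallowest quartile (4638 to 9298 UMIs) had 0 UMIs of Six3, Hesx1 and Lhx5. The share was 60.7% in the next quartile, 50.4% in the third and 36.5% (33.6 to 39.5%) in the deepest, from 16310 to 25998 UMIs. With every cell thinned to 5000 UMIs and a Dppa5a limit of 5, it was 74.6% (1879 of 2519 cells). A low level of these genes was thus not always detectable at the depth of the members.

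**Figure D2:**
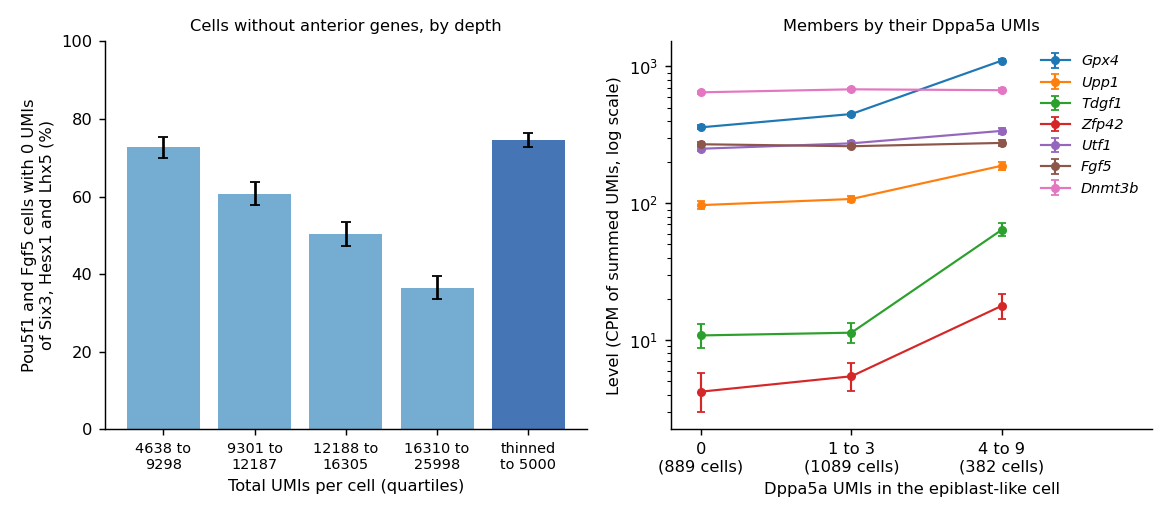
Left, the share of cells with Pou5f1 and Fgf5 UMIs that had 0 UMIs of Six3, Hesx1 and Lhx5, by quartile of total UMIs and with every cell thinned to 5000 UMIs, with 95% exact binomial intervals; it ran from 72.8% in the shallowest to 36.5% in the deepest quartile. Right, levels of 7 genes (CPM, log axis, 95% exact Poisson intervals) in members with 0, 1 to 3 and 4 to 9 Dppa5a UMIs: Gpx4, Upp1, Tdgf1 and Zfp42 were highest at 4 to 9, while Fgf5 and Dnmt3b stayed near one level.

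Against the Dppa5a-high cells, the members were lower in the summed naive pluripotency genes, in Gpx4 and in Tdgf1, and higher in Dnmt3b, Pim2, Cd24a and Crabp2. A gene was counted as higher or lower where the ratio of its CPM was 1.5 or more, or its inverse or less, and the interval left out 1, among genes with a mean of at least 10 CPM over both groups. Of 6452 such genes, 720 (11.2%) were higher in the members and 488 (7.56%) were lower. All of these describe the same contrast as the Dppa5a limit, which chose both groups. A gene under 10 CPM in one group could pass only through the other and so leaned that way. Such genes are named beside the counts below, which are descriptions and not support for a direction. The median log2 ratio over all genes was 0.17, beside the higher ribosomal share of the Dppa5a-high cells. Centred on that median, 368 genes were higher and 688 lower, so that the higher calls made up 34.8% of all calls in place of 59.6%, and with totals that left out mitochondrial and ribosomal protein genes they were 477 and 586 (44.9%).

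The naive pluripotency list was low in the members, and its genes went with the Dppa5a limit that chose the groups. Its 22 genes besides Dppa5a summed to 78.6 CPM in the members and 889 CPM in the Dppa5a-high cells (ratio 0.0884, 0.0845 to 0.0924). Of them 10 passed the limit of 10 CPM, 7 of these through the Dppa5a-high cells alone, so their number is not read further. The other 12 stood at 3.07 CPM or less in the members. Zfp42 (REX1), a zinc finger factor and naive marker, stood at 7.28 CPM against 171 CPM, and Klf2, a naive Kruppel-like factor, at 9.49 against 93.1 CPM. Nanog, which falls and returns in the epiblast of the embryo, stood at 13.5 against 31.9 CPM. Spp1, a secreted phosphoprotein, stood at 13.5 against 217 CPM and Tdh, the threonine dehydrogenase of mouse stem cells, at 15.1 against 121 CPM. In the thinned cells, a UMI of Zfp42 was seen in 3.27% of the members, 42.1% of the Dppa5a-high cells and 15.4% of the endoderm-marker cells.

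Core pluripotency genes did not move as a block. Of 12 measured besides Pou5f1, 3 were higher and 5 lower (median log2 ratio -0.26), beside 11.2% of all genes higher and 7.56% lower. Tdgf1 (Cripto), the co-receptor of Nodal, stood at 20.8 CPM against 383 CPM, Dppa4 at 13.6 against 108 CPM and Gdf3, a TGF-beta family ligand that passed only through the Dppa5a-high cells, at 5.14 against 40.1 CPM. The higher genes were Nr6a1 (germ cell nuclear factor, a repressor of Pou5f1) at 92.1 against 42.0 CPM, Lin28a at 143 against 79.5 CPM and Sall4 at 149 against 93.4 CPM. Sox2 stood at 100 and 122 CPM.

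The formative and primed epiblast list was split as well, with 5 genes higher and 4 lower of 15 that passed (median log2 ratio 0.09, and -0.08 after centring). Over all genes, 11.2% were higher and 7.56% lower. Beside Dnmt3b and Pim2, Sall2 stood at 48.1 against 17.2 CPM, Tcf7l1, a repressor of Wnt target genes, at 58.6 against 33.6 CPM and Sox4 at 85.2 against 54.6 CPM. The lower genes were Utf1, Dnmt3a at 67.9 against 108 CPM, Etv5, an ETS factor downstream of FGF, at 41.1 against 131 CPM and Tcf15, a factor of cells primed to leave the naive state, at 7.67 against 67.2 CPM. Tcf15 and Dnmt3l passed only through the Dppa5a-high cells. The DNA methylation genes parted in the same way. Dnmt3b had a ratio of 2.21, while Dnmt3l, the cofactor of the de novo enzymes, stood at 3.89 against 52.6 CPM and Tet1, a 5-methylcytosine dioxygenase, at 42.9 against 83.9 CPM.

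Among the 12 highest ratios of genes at 50 CPM or more, several were genes of neural or differentiating cells. Crabp2, a retinoic acid carrier, stood at 86.4 CPM in the members and 23.9 CPM in the Dppa5a-high cells (ratio 3.62, 3.28 to 4.00), Cd24a, a surface protein of differentiating cells, at 394 against 111 CPM and Gng3, a G protein subunit of neurons, at 90.1 against 25.4 CPM. Sox11, an early neural SRY-box factor, stood at 138 against 49.5 CPM, Fabp5, a fatty acid carrier, at 512 against 199 CPM, and Prtg (protogenin), a cell surface protein of the early neural tube, at 98.8 against 39.8 CPM. Id3, Auts2, Larp7, Pim2 and H1f0 were also among them, with ratios from 2.39 to 2.76. Of the early neural list, 5 of 18 genes passed and 3 were higher (Sox11, Nes and Ptn), of which Nes and Ptn passed only through the members. The share of all genes higher was 11.2%. In the thinned cells Sox11 was seen in 48.6% of members, 18.5% of Dppa5a-high cells and 10.3% of endoderm-marker cells.

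Several of the lowest 12 ratios at 50 CPM or more were of naive list genes (Zfp42, Spp1, Klf2 and Tdh). The limit was on the mean of both groups. Zfp42, Spp1, Klf2, Tdh, Tdgf1, Dppa4, Hspb1 and Ifitm1 were under 50 CPM in the members and reached it through the Dppa5a-high cells alone. Their place in the ranking is a description only. Gpx4, the glutathione peroxidase that reduces lipid peroxides, stood at 537 CPM in the members and 4723 CPM in the Dppa5a-high cells (ratio 0.114, 0.112 to 0.116), and Upp1, uridine phosphorylase, at 119 against 684 CPM. Hspb1, a small heat shock protein, stood at 23.8 against 514 CPM and Ifitm1 at 18.7 against 163 CPM. The others were Tdgf1, Ptgr1, Dppa4 and Fabp3, and all 12 had log2 ratios from -4.56 (Zfp42) to -2.53 (Upp1).

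The signalling lists are given by their counts, beside 11.2% of all genes higher and 7.56% lower. Of 7 BMP pathway genes that passed, 6 were higher (3 after centring). They were the targets Id1 (46.4 against 18.9 CPM), Id2 (31.5 against 10.5 CPM) and Id3 (178 against 64.2 CPM), inhibitors of helix-loop-helix factors, with the receptor Bmpr1a and the transducers Smad1 and Smad5, the last of which passed only through the members. Of 12 Wnt pathway genes, 6 were higher (4 after centring) and none lower, among them Wls, needed for Wnt secretion, at 20.1 against 4.24 CPM and the antagonist Sfrp1 at 67.8 against 19.9 CPM. Wls and Fzd5 passed only through the members. Of 8 Nodal pathway genes, 3 were lower (Tdgf1, Gdf3 and the feedback inhibitor Lefty1, at 4.35 against 16.5 CPM) and 1 higher (Furin). Gdf3 and Lefty1 passed only through the Dppa5a-high cells and Furin only through the members, and with cells thinned before the rule, or with the mean over cells, 3 Nodal genes were higher and 3 lower. Of 10 FGF genes besides Fgf5, 4 were lower, among them Fgf4, the ligand of naive cells, at 2.75 against 24.5 CPM, and 1 higher, the receptor Fgfr1, at 67.6 against 24.1 CPM. Fgf4 and Spry1, another of the 4, passed only through the Dppa5a-high cells.

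Genes of glucose use differed by enzyme. Ldhb, the lactate dehydrogenase subunit that favours pyruvate, stood at 236 CPM in the members and 1079 CPM in the Dppa5a-high cells, while Ldha stood at 2245 and 1563 CPM (ratio 1.44). Of 18 glycolysis genes, 4 were lower (Ldhb, Pfkp, Pfkm and Hk1, the last through the Dppa5a-high cells alone), none was higher and 14 were within 1.5 times. Of 16 lactate, pyruvate and hypoxia response genes, 7 were lower and none higher (median log2 ratio -0.50), beside 7.56% of all genes lower. The lower genes included Pdk1, the kinase that holds pyruvate dehydrogenase off, at 46.7 against 219 CPM. Mpc1, a mitochondrial pyruvate carrier, at 8.31 against 40.2 CPM, and Ndrg1, at 6.24 against 23.2 CPM, were lower too. Of the 16 genes, 3 passed only through the Dppa5a-high cells, Mpc1 and Ndrg1 among them. Of 20 genes of the tricarboxylic acid cycle 1 was lower (Idh2, 60.4 against 119 CPM).

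Of 11 genes of the p53 response, 6 were lower and 1 higher (median log2 ratio -0.64), beside 7.56% of all genes lower and 11.2% higher. Cdkn1a (p21), an inhibitor of cyclin-dependent kinases, stood at 14.3 against 68.7 CPM and Trp53inp1 at 17.5 against 43.6 CPM, whereas Pmaip1 (Noxa) was higher, at 47.2 against 19.6 CPM. Among 39 S phase genes 6 were higher and none was lower. Their median log2 ratio of 0.41 became 0.24 after centring, with no gene counted. Of 51 genes of the G2 and M phases, 3 were higher and 2 lower (median 0.01), and after centring none was higher and 6 were lower.

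In the endoderm-marker cells Dppa5a stood at 2452 CPM and Sparc, a matrix protein, at 10411 CPM, and leaving them out took the Dppa5a-high group from 1584 to 1558 cells. All 8 primitive endoderm genes that passed were lower in the members, beside 7.56% of all genes, among them Col4a1 at 8.67 against 41.5 CPM. Without the endoderm-marker cells, an alternative chosen after seeing the data, 4 passed with 1 lower and 1 higher, and Col4a1, Col4a2 and Lama1, basement membrane genes, turned to log2 ratios of 0.80, 0.46 and 0.05. Of the 8, 4 had passed through the Dppa5a-high cells alone.

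The members were next set beside the Six3-positive cells. Of 6481 genes, 130 (2.01%) were higher in the members and 79 (1.22%) lower, and over all of them the log2 ratio had a median of -0.05. The higher calls made up 62.2% of all calls, and 70.0% after centring. The members were higher in Mt1, Mt2, Upp1, Bnip3, Ddit4, Cdh1 and Epcam, and lower in the BMP targets Id1, Id2 and Id3 and in Shisa2, Fezf2 and Mest. Six3-positive cells were the deeper group, and both comparisons rest on the same members. Levels and medians from both are set side by side below as a description. No test set 1 comparison against the other.

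Among genes at 50 CPM or more, the highest ratio was that of Upp1, at 119 CPM in the members and 31.9 CPM in the Six3-positive cells (ratio 3.72, 3.40 to 4.08). Sycp3, a synaptonemal complex protein, had a ratio of 2.54 (2.30 to 2.80). Ddit4, an inhibitor of mTORC1 induced by stress and low oxygen, stood at 93.9 against 39.6 CPM, and Platr10, a noncoding RNA named for its link to pluripotency, at 76.0 against 33.2 CPM. Mt1 and Mt2, the metallothioneins that bind zinc and copper, stood at 2343 against 1143 CPM and 1390 against 649 CPM. Bst2 (tetherin), the ubiquitin ligase Mkrn1, the mitophagy receptor Bnip3, Cldn7, Utf1 and Gpx4 completed the 12, with ratios from 1.79 to 2.01. Upp1, Sycp3, Ddit4, Platr10 and Cldn7 were under 50 CPM in the Six3-positive cells and reached the limit of 50 CPM through the members alone. Below that limit Tdgf1, at 20.8 CPM in the members and 2.63 CPM in the Six3-positive cells, had a ratio of 7.90. In the 889 members with 0 Dppa5a UMIs, Gpx4 stood at 359 CPM, within 1.5 times the 300 CPM of the Six3-positive cells.

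Several of these genes were lower in the members than in the Dppa5a-high cells and higher than in the Six3-positive cells. Mt1 stood at 4770, 2343 and 1143 CPM, Mt2 at 3746, 1390 and 649 CPM, Gpx4 at 4723, 537 and 300 CPM, Mkrn1 at 950, 425 and 214 CPM, and Bnip3 at 258, 164 and 83.7 CPM in the order Dppa5a-high, members, Six3-positive. Slc2a1, the glucose transporter GLUT1, did not follow that order, at 395, 493 and 295 CPM, and Dnmt3b was highest in the members as well.

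Of the lactate, pyruvate and hypoxia response list, 6 of 12 genes that passed were higher in the members than in the Six3-positive cells and none was lower (median log2 ratio 0.49), beside 2.01% of all genes higher and a median of -0.05. The 6 were Pdk1 (46.7 against 17.0 CPM), Egln3, an oxygen-sensing prolyl hydroxylase (16.7 against 6.25 CPM), Ddit4, Ero1l, an oxidase of the endoplasmic reticulum (31.5 against 14.9 CPM), Bnip3 and P4ha1, a collagen prolyl hydroxylase (13.9 against 8.47 CPM), of which Egln3 and P4ha1 passed only through the members. Of 17 glycolysis genes, 3 were higher (Slc2a1, and Pfkp and Aldoc, which passed only through the members) and none lower, while Gapdh, Pkm, Eno1 and Ldha had ratios within 1.5. None of 39 S phase genes and none of 52 genes of the G2 and M phases was higher or lower, with medians of -0.10 and -0.09.

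Upstream sequences are shown for 4 genes on which the values turn: Mt1 and Mt2, which also varied together among the members, Bnip3 of the hypoxia response list, and the marker Pim2. They are RefSeq windows of 250 bases before the annotated transcript start, 5′ to 3′ on the gene's strand, build GRCm38.p6, chr8:94178839-94179088 (+) for Mt1, chr8:94172368-94172617 (+) for Mt2, chr7:138909507-138909756 (-) for Bnip3 and chrX:7878056-7878305 (+) for Pim2. Capitals mark, on either strand, TGCACNC or TGCGCNC (the core of the metal response element) in Mt1 and Mt2, ACGTG (the core of the hypoxia response element) in Bnip3 and ATGCAAAT (the octamer bound by POU factors) in Pim2.
Mt1: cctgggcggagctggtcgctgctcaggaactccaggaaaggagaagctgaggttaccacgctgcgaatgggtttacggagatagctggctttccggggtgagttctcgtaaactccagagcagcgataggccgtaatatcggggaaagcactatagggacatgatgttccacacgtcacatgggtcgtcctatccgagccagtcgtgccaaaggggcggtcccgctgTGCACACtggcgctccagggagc
Mt2: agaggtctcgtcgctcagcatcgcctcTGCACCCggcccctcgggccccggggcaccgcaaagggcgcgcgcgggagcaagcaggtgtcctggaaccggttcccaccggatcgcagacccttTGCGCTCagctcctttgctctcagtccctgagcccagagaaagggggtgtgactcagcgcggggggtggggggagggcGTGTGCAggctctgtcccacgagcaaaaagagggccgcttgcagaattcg
Bnip3: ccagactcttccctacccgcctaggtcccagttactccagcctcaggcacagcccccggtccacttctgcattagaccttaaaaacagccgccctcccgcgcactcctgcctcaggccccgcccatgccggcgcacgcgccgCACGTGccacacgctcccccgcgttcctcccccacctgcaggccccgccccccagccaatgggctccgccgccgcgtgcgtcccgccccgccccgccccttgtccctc
Pim2: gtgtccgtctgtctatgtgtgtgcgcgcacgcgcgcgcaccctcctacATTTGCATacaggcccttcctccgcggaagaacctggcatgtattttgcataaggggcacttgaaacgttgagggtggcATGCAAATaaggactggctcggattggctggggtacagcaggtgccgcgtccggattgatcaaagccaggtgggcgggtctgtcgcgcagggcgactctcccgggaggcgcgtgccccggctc

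The Mt1 window held 1 metal response core and the Mt2 window 3, and of 32851 windows 21.4% held 1 or more and 1.26% held 3 or more. Only these 250 bases were searched, so the counts are not those of a whole promoter. Matches further up or after the annotated start were not counted. The Bnip3 window held 2 overlapping matches, one on each strand, which 6.81% of windows reach or pass. The Pim2 window held 2 octamers, and 0.0974% of windows held 2 or more. Pim2 was the 1 gene with an octamer among 15 formative and primed epiblast genes with a window, and 2 of 12 naive genes held one (Spp1 and Zfp42), against 1.81% of all genes. Of the 16 lactate, pyruvate and hypoxia response genes 14 had a window, and 10 of these held ACGTG, against 18.5% of 27025 genes. The list was written to hold genes of the hypoxia response, so this share describes the list and not these cells. Of the 10, Bnip3, Ddit4, Egln3 and P4ha1 were counted as higher than in the Six3-positive cells. Ankrd37, Pdhb, Pdk3, Slc16a1, Slc16a3 and Vegfa were not. Pdk1, counted as higher with the largest ratio of the list, was not among the 10. These are matches of letters, and no binding was measured here.

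Of 11 cadherin, junction and keratin genes that passed, 4 were higher, 1 was lower and 6 were within 1.5 times. Over all genes tested against the Six3-positive cells, 2.01% were higher and 1.22% lower. Cdh1 (E-cadherin) stood at 105 CPM in the members and 63.6 CPM in the Six3-positive cells, Epcam at 245 against 151 CPM, Cldn6 at 70.0 against 41.3 CPM and Cldn7 at 82.3 against 44.1 CPM. Cdh2 (N-cadherin), the cadherin of the neural plate, was the lower one, at 11.7 against 25.5 CPM. Of 14 formative and primed genes besides Fgf5, 4 were higher (Utf1, Etv5, Cldn6 and Rbpms2) and 1 was lower, Otx2.

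Among genes at 50 CPM or more, the lowest ratios were those of Shisa2, an antagonist of Wnt and FGF signalling in the head, at 21.8 CPM in the members against 86.4 CPM (ratio 0.252, 0.229 to 0.277), and Mest, an imprinted gene, at 149 against 499 CPM (0.298, 0.287 to 0.309). Of 7 BMP pathway genes 3 were lower, Id1 at 46.4 against 152 CPM, Id2 at 31.5 against 103 CPM and Id3 at 178 against 308 CPM, and none was higher. The shares over all genes were 1.22% lower and 2.01% higher. Of 5 anterior neural and eye genes that passed, 4 were lower: Fezf2, a forebrain zinc finger factor that passed only through the Six3-positive cells (1.21 against 18.9 CPM, ratio 0.0643), Fzd5, a Wnt receptor of the eye field, Sfrp1 and Shisa2. Prtg, Fgfr1, H2afy2, Sparc, Otx2 and Gpc3 were lower too, with ratios from 0.561 to 0.620. Shisa2, Id1 and Id2 were under 50 CPM in the members and reached the limit of 50 CPM through the Six3-positive cells alone. Six3-positive cells were chosen by a gene of the same region, so these ratios belong to the contrast that chose them. With the Six3-positive cells held to Pou5f1 and Fgf5 UMIs as well, 811 cells remained, and 117 genes were higher and 80 lower, of which 110 and 65 were among those above.

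Cells with Pou5f1 and Fgf5 could be ordered by how many of Six3, Hesx1 and Lhx5 were seen, from the 2360 members with 0 to 1171 cells with 1, 539 with 2 and 213 with 3. Mest stood at 149, 263, 398 and 521 CPM and Id1 at 46.4, 97.9, 132 and 163 CPM, in that order. Upp1 ran the other way, at 119, 56.4, 34.6 and 30.3 CPM, as did Mt1, at 2343, 1628, 1161 and 933 CPM, and Bnip3, at 164, 117, 89.0 and 72.4 CPM. Fgf5 stood at 267, 229, 191 and 145 CPM and Utf1 at 277, 211, 174 and 152 CPM, while Pim2 stood at 397, 425, 415 and 410 CPM. The median depth rose with the number seen, from 10942 to 16475 UMIs, and among members Fgf5 itself stood at 320 CPM in the shallowest and 250 CPM in the deepest quartile. The part of depth in the order was not tested.

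**Figure D3:**
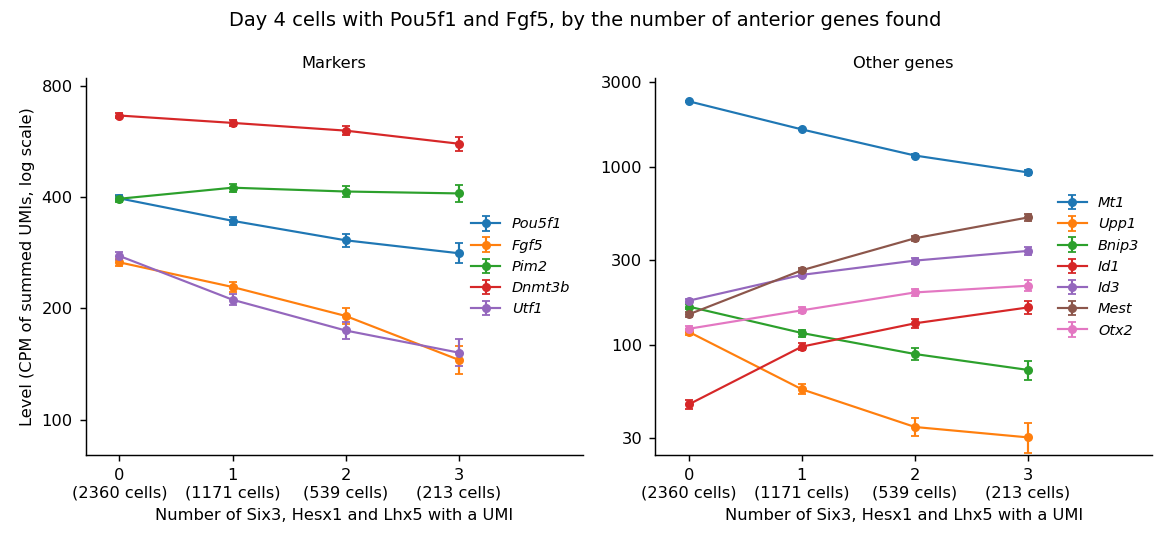
Levels (CPM of summed UMIs, log axis, 95% exact Poisson intervals) in day 4 cells with Pou5f1 and Fgf5 UMIs and fewer than 10 Dppa5a UMIs, by how many of Six3, Hesx1 and Lhx5 had a UMI; the members are the cells at 0. From 0 to 3 genes seen, Fgf5 and Utf1 were lower at each step in the left panel while Pim2 stayed between 397 and 425 CPM, and in the right panel Mt1, Upp1 and Bnip3 were lower and Mest, Id1, Id3 and Otx2 higher at each step.

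**Figure D4:**
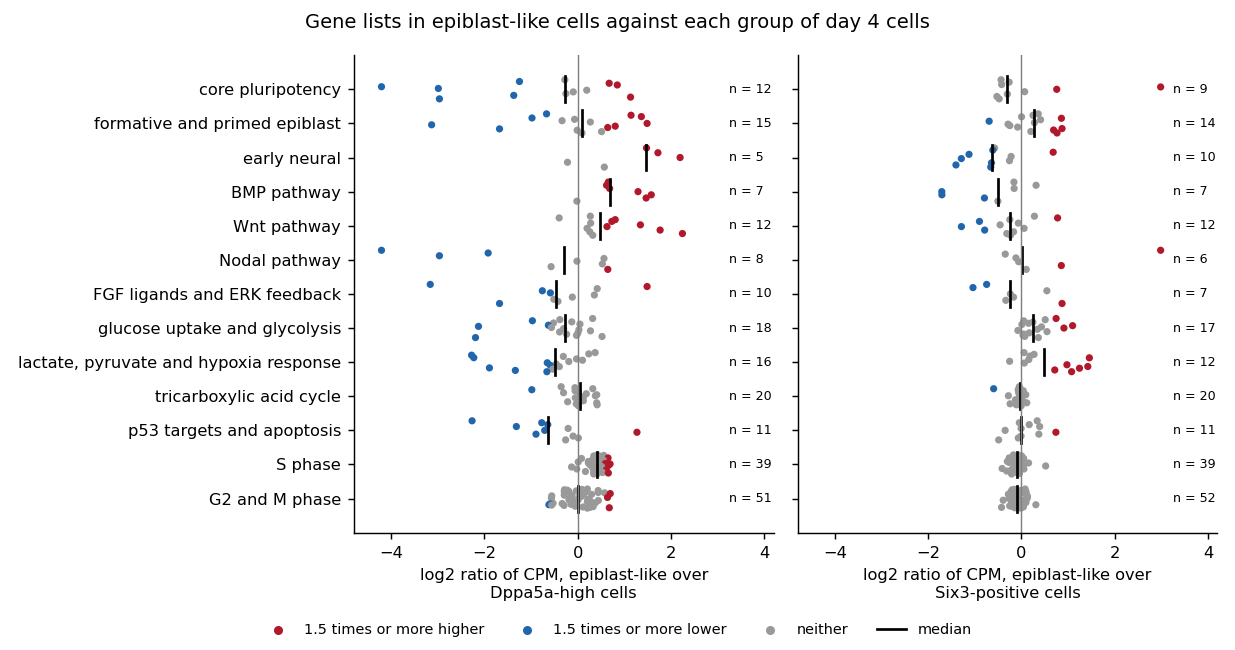
Log2 ratios of CPM in the members over the Dppa5a-high cells (left) and over the Six3-positive cells (right) for each gene of 13 lists that passed the limit of 10 CPM; genes of the rule are left out, lines mark the medians and n is the number of genes. The median of the BMP list is 0.68 on the left and -0.51 on the right, and that of the hypoxia list is -0.50 on the left and 0.49 on the right.

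Among the genes kept in the ranking, the members varied most in Malat1, a nuclear noncoding RNA, Mt1, the cytoskeletal gene Actb and Mt2. Mitochondrial, ribosomal protein, haemoglobin and rule genes and gene models without a proper name were left out of it. Over 2321 thinned members the median Fano factor, the variance over the mean, was 1.03 across 4448 genes at 0.1 UMIs or more per cell, where counting alone gives about 1, and 48 genes reached 2. Malat1 had a Fano factor of 20.6, with a median of 24 UMIs and a 10th to 90th percentile of 6 to 59. Mt1 had 13.3, with a median of 8 UMIs (1 to 28) and up to 122 in a cell. Actb had 8.87 and Mt2 had 8.81. Mt1 and Mt2 UMIs went together over the members (Pearson's r 0.835, Spearman's rho 0.811, 2321 cells of 1 library). Gpx4, Tdgf1, Dqx1, Rhox5, Apoe and Gapdh made up the rest of the 10 highest. Actb had a median of 4 UMIs and a 90th percentile of 20, and stood at 2055 CPM in the shallowest quartile of members and 1059 CPM in the deepest. The 5 marker genes spread less than the 10 highest, with Fano factors from 1.11 (Pou5f1) to 1.57 (Dnmt3b). All but Pou5f1 were above the 90th percentile of the 4448 genes (1.16). The rule held Pou5f1 and Fgf5 at 1 or more UMI in each member before thinning.

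**Figure D5:**
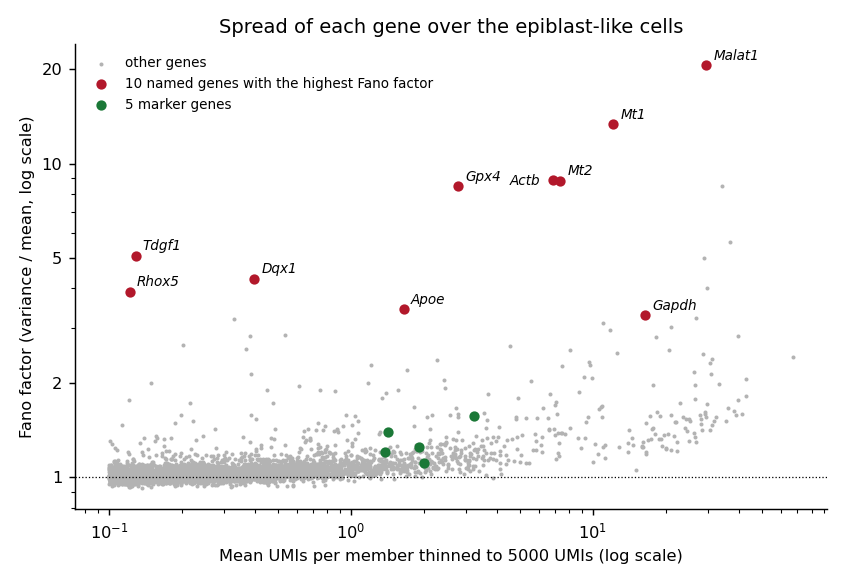
Fano factor against mean UMIs per member for 4448 genes, each member thinned to 5000 UMIs, both axes logarithmic; the dotted line at 1 is what counting alone gives. The 10 labelled genes, led by Malat1 (20.6) and Mt1 (13.3), are the highest among the genes kept in the ranking. The 5 markers lie from 1.11 to 1.57, where the 90th percentile of all genes is 1.16.

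A few cells carried most of the UMIs of some genes. The 118 members (5%) with the most UMIs of Tdgf1 held 85.7% of all its UMIs in the members, and the same number held 91.5% of those of Rhox5, a homeobox gene of the X chromosome, and 61.1% of those of Dqx1, a helicase gene. For Gpx4 it was 32.4%. In a look chosen after these values were seen, the 60 members with 3 or more Tdgf1 UMIs had Gpx4 at 3273 CPM against 473 CPM in the other 2300, Upp1 at 530 against 109 CPM and Utf1 at 586 against 270 CPM. Dnmt3b was at 331 CPM in these 60 against 674 CPM and Pim2 at 231 against 400 CPM, while Fgf5 was at 264 and 267 CPM. The streak gene T had 0 UMIs in the 60 cells (upper bound of the interval 5.75 CPM), and Eomes had 2 UMIs.

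The members also graded by their Dppa5a UMIs, a value the rule capped. Gpx4 stood at 359 CPM in the 889 members with 0 Dppa5a UMIs, 448 CPM in 1089 with 1 to 3 and 1102 CPM in 382 with 4 to 9. Tdgf1 stood at 10.8, 11.3 and 64.1 CPM, Upp1 at 96.9, 107 and 188 CPM and Mt1 at 1888, 2220 and 3513 CPM in that order. Fgf5 (270, 261 and 276 CPM), Pim2 (397, 401 and 384 CPM) and Nanog (13.1, 13.9 and 12.9 CPM) stayed near one level. Within the members with 0 Dppa5a UMIs, the Fano factor of Gpx4 was 1.65, against 8.47 in all members. The median depth of the 3 classes was 9950, 11481 and 12381.5 UMIs.

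Markers of other cell types are given as sums over whole sets. The 7 naive markers summed to 21.5 CPM, against 317 CPM in the Dppa5a-high and 245 CPM in the endoderm-marker cells. In 23 members 3 or more of their UMIs were found. The 7 endoderm markers summed to 7.96 CPM, against 2889 CPM in the endoderm-marker cells, and 2 members had 3 or more UMIs. The 5 primitive streak markers summed to 3.78 CPM, and the 4 neural crest markers to 0.963 CPM with Tfap2b at 0 UMIs, which allows up to 0.107 CPM (3 counts). Rax, Sox1 and Pax6 summed to 7.85 CPM in the members and 27.4 CPM in the Six3-positive cells. The 4 neuron markers summed to 64.9 CPM in the members, 50.1 CPM in the Dppa5a-high cells, 77.9 CPM in the Six3-positive cells and 3.77 CPM in the endoderm-marker cells. A UMI of them was seen in 47.5% of members (26.5% when thinned, against 2.56% of thinned endoderm-marker cells), and 7.03% of members had 3 or more. Of the longer lists, none of 16 primitive streak, 10 neural crest and 10 posterior neural genes passed 10 CPM in either comparison.

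The same rule found 22 of 6440 day 6 cells within the limits (0.342%, 0.214 to 0.517%). Fgf5 stood at 224 CPM and Dnmt3b at 157 CPM in these, and Gpx4 at 1485 CPM. The cells belong to the other library, and their levels were not compared with day 4.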

How the data were processed

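Single-cell RNA was measured in 1 day 4 and 1 day 6 library (10x Genomics 3' v2), each a pool of 3 biological experiments. The deposited files give UMI counts, unnormalized, for every barcode, made by the authors against mm10. For each day the paper states more cells after its own filter than there are barcodes here. Cell Ranger (2.0.1) and Seurat (2.3.4) are the tools in the submitters' processing notes.

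Members, gene lists and comparisons were chosen with earlier results of these data known. Group sums of UMIs were given as CPM with exact Poisson intervals, ratios with exact conditional binomial intervals and shares with Clopper-Pearson intervals, all at 95%. With 1 library and no replicates, no test was run. A gene was called by a ratio of 1.5 at a mean of 10 CPM. Genes named were the markers, the rule's genes, the 12 highest and lowest ratios at 50 CPM or more, up to 3 genes per list and the 10 highest Fano factors; other list genes are named as examples chosen after their values were seen. The 26 lists held 425 genes. Mitochondrial, ribosomal protein, haemoglobin and rule genes and gene models such as Gm and Rik stayed out of the ranking. One gene that the ranking named is not reported here. No doublet caller was run, and doublets were left in. The calls were also run on simulated group sums. These had no spread between cells, so they cannot show how such spread affects the calls. Python 3.11.15, numpy 2.4.6, scipy 1.17.1 and pandas 2.3.3 were used. Besides the 14 alternatives listed at the outset, 2 were added after the data were seen.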

Additional observations from a re-analysis of the deposited data

How the results depend on the processing

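No paired analysis was possible because each day has 1 library. With a limit of 1 CPM in place of 10 CPM, 1736 genes were higher and 1585 lower against the Dppa5a-high cells, and 525 and 401 against the Six3-positive cells. With a limit of 50 CPM the numbers were 214 and 111, and 35 and 17, since fewer genes were tested. Against the Dppa5a-high cells, 477 genes were higher with totals that left out mitochondrial and ribosomal protein genes and 368 after centring on the median. Against the Six3-positive cells, 145 genes were lower when cells were thinned before the rule was applied and 127 when 2 or more Six3 UMIs were required. The members numbered 1498 with 2 or more UMIs of Pou5f1 and Fgf5 and 889 with 0 Dppa5a UMIs. Without the endoderm-marker cells, an alternative chosen after seeing the data, the log2 ratios of Col4a1, Col4a2 and Lama1 turned to 0.80, 0.46 and 0.050. With the Dppa5a-high cells held to the same Pou5f1, Fgf5 and anterior genes as the members, also chosen after seeing the data, 631 cells remained and 503 genes were higher and 378 lower, of which 454 and 348 were among the main calls. Of 2308 recomputed log2 ratios of 165 named genes and comparisons, 1764 moved by less than their counting interval, 541 moved by more and 3 turned. The 1764 include all 165 at the limit of 1 CPM and all 165 at 50 CPM. Those limits change which genes are tested and cannot change a ratio. With the study's full filter 159 stayed and 6 moved. With cells thinned before the rule 77 stayed and 88 moved. With the Dppa5a-high cells held to the same genes 25 stayed and 62 moved. The causes were not tested. One library per day gives no replicate spread, and the 0 UMI limits depend on depth.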

Other observations

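Lists not described above are given here by their counts, with no test. Over all genes, 2.01% were higher and 1.22% lower against the Six3-positive cells. Against the Dppa5a-high cells the shares were 11.2% and 7.56%, so like counts do not mean the same in the 2 comparisons. Against the Six3-positive cells, 6 of 10 early neural genes were lower in the epiblast-like cells, among them Ptn, a heparin-binding growth factor, at 21.0 against 51.3 CPM, and Ccnd2, a G1 cyclin, at 12.1 against 32.1 CPM, and 1 was higher, the intermediate filament gene Nes, at 20.9 against 13.1 CPM. Of 9 core pluripotency genes 2 were higher (Tdgf1 and L1td1), of 6 Nodal genes 2 (Tdgf1 and Skil), and of 7 FGF genes 1 was higher (Etv5) and 2 lower (the receptors Fgfr1 and Fgfr2). Of 12 Wnt genes 1 was higher (Tcf7) and 3 lower (Tcf7l2, Fzd5 and Sfrp1). None of 7 DNA methylation genes was higher or lower. Of 11 p53 genes 1 was higher (Pmaip1), of 20 genes of the tricarboxylic acid cycle 1 lower (Idh1), of 8 Lin28 and Hmga genes 1 lower (Hmga2), and of 5 primitive endoderm genes 1 higher (Apoe) and 2 lower (Col4a1 and Sparc). Of the naive list 1 gene passed, Tdh, through the epiblast-like cells alone, at 15.1 against 6.25 CPM. Tdgf1 passed through the epiblast-like cells alone as well, and Crabp1, Vldlr and Col4a1 through the Six3-positive cells alone.

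Against the Dppa5a-high cells, 3 of 4 anterior neural and eye genes were higher (Sfrp1, and Fzd5 and Shisa2, which passed the limit of 10 CPM only through the epiblast-like cells), 2 of them after centring, and of 7 Lin28 and Hmga genes 2 were higher (Lin28a, and Lin28b through the epiblast-like cells alone) and 1 lower (Mycn). Of 12 cadherin, junction and keratin genes 1 was higher (Cldn7) and 2 lower (Cldn4 and Krt19, both through the Dppa5a-high cells alone). Of 9 integrated stress response genes 3 were lower (Nupr1, Ddit4 and, through the Dppa5a-high cells alone, Ddit3), against 1 higher and 1 lower of 7 beside the Six3-positive cells. The share of all genes lower was 7.56% in the first comparison and 1.22% in the second. Of 6 immediate early and dissociation stress genes 1 was lower (Hspb1), and of 5 beside the Six3-positive cells 2 were higher (Jund and Hspb1). None of 3 genes of first neurons was higher or lower in either comparison. Of 6 day 4 signalling and metal-binding genes 2 were higher (Calca and Cxcl12) and 2 lower (Mt1 and Mt2), and 3 were higher beside the Six3-positive cells (Rbpms2, Mt1 and Mt2).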
